A study of Mus musculus with 2 samples.

Results

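The 5 long noncoding RNAs Malat1, Neat1, Gm42418, Meg3 and Kcnq1ot1, which are retained in the nucleus or read from the ribosomal RNA locus, were followed in single cells of the murine retinal pigment epithelium (RPE). They are 5 of the 27998 genes in the deposited matrices and were taken by gene symbol. They were chosen by their values in these same cells, namely their share of unique molecular identifiers (UMIs), their relation to depth and to the mitochondrial share, and their level in cells with little Ttr. Their values are therefore given as a description, with no test. Cells came from 2 male C57BL/6J mice, R1 and R2, at postnatal day 36, and both eyes of a mouse were pooled. The study had 1 condition, with no treatment and no genetic change. RPE sheets were released with trypsin after removal of the retina, dispersed, and sorted for calcein-AM uptake and DAPI exclusion, a gate that selects living cells with intact membranes. Each mouse gave 1 library of polyadenylated RNA read at the 3′ end.

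Malat1 and Neat1 are transcribed from neighbouring genes. Malat1 RNA gathers in nuclear speckles, where splicing factors are stored, and its 3′ end is not made by polyadenylation but by RNase P, which leaves an A-rich tract and releases a small tRNA-like RNA. Neat1 is the scaffold of paraspeckles, nuclear bodies built on its long form together with RNA-binding proteins such as Sfpq, Nono and Pspc1, and its short form carries a poly(A) tail. Meg3 and Kcnq1ot1 are read from imprinted domains, Meg3 from the maternal and Kcnq1ot1 from the paternal chromosome, where Kcnq1ot1 silences neighbouring genes in cis. As a share of a cell's UMIs, the level of a nuclear RNA depends on its own amount and on the amount of cytoplasmic RNA captured beside it.

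Libraries of this kind begin at stretches of A, so the longest run of A or the end of selected annotated transcripts is shown first. Sequences are from GENCODE M21 on GRCm38, the build to which the reads were aligned. The Malat1 gene lies on the minus strand at chr19:5795690-5802672, and its 6983-base transcript Malat1-201 holds a run of 12 A that ends 298 bases before the annotated 3′ end, at chr19:5795964-5796023 with the bases on either side. The Neat1 gene, also on the minus strand, spans chr19:5824708-5845478, and the gap between it and Malat1 is 22035 bases. The short transcript Neat1-202 (3004 bases) ends at chr19:5842307-5842366 with the polyadenylation signal AATAAA, whereas the long transcript Neat1-201 (20771 bases) ends at chr19:5824708-5824767 without one. Gm42418 (1831 bases, plus strand, chr17:39846958-39848788) has no run of A above 6, shown at chr17:39847143-39847196, and no AATAAA in its last 50 bases. Meg3 (plus strand, chr12:109541001-109571726) ends in transcript Meg3-209 at chr12:109571667-109571726 with AATAAA, and Meg3-209 holds 6 runs of 9 or more A, the longest of 16. Kcnq1ot1 (minus strand, chr7:143203458-143296549) has 18 runs of 9 or more A within its 93092 bases, the longest of 41 at chr7:143226921-143227009. Malat1-201 and Kcnq1ot1-201 hold an AATAAA in their last 50 bases as well. Capitals mark the run of A or the AATAAA, and where the transcript's end holds neither there are none.
Malat1-201, longest run of A: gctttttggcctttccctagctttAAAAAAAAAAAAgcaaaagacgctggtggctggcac
Neat1-202, last 60 bases: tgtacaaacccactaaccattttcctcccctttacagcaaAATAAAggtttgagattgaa
Neat1-201, last 60 bases: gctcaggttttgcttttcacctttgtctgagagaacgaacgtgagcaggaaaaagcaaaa
Gm42418-201, longest run of A: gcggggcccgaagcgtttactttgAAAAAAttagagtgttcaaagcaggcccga
Meg3-209, last 60 bases: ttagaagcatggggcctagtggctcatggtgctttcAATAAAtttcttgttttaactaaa
Kcnq1ot1-201, longest run of A: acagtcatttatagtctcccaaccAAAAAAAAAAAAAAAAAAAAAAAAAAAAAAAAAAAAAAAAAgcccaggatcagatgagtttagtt

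Gm42418 lies wholly inside an annotated ribosomal RNA gene on the opposite strand, and AY036118 lies within Gm42418 on that opposite strand. Kcnq1ot1 lies wholly inside Kcnq1, again on the opposite strand. Whether counting used the strand is not given in the sources used here, so the counts of Gm42418 may hold reads of ribosomal RNA or AY036118. AY036118 had 425 UMIs in R1 and 95 in R2. Kcnq1 had 0 UMIs in both mice, so no reads were assigned to the gene around Kcnq1ot1.

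The matrices held 2844 cells with 26034378 UMIs in R1 and 2994 cells with 29732969 UMIs in R2, and 12 cell barcodes occurred in both. Cells with fewer than 500 genes or over 5% mitochondrial UMIs were left out, which kept 2782 and 2966 cells. Ttr encodes transthyretin, the carrier of retinol and thyroid hormone and a leading transcript of RPE. It took at least 5% of UMIs in 2723 cells of R1 and 2947 of R2, called Ttr-high here, and under 3% in 59 and 19 cells, called Ttr-low. No kept cell lay between these limits. The lowest Ttr share among Ttr-high cells was 5.18% in R1 and 5.14% in R2, and the highest among Ttr-low cells was 2.66% and 0.755%. Every Ttr-high cell had UMIs of at least 3 of the 9 RPE markers. Their median depth was 8751 UMIs in R1 and 8158 in R2, whereas Ttr-low cells had 3200 and 3836.

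Malat1 was among the most abundant transcripts of Ttr-high cells, Kcnq1ot1 and Neat1 were sparse, and Meg3 was close to absent. Levels are given as UMIs per 10000 UMIs of all Ttr-high cells of a mouse, with 95% exact Poisson intervals that cover counting error only. Malat1 stood at 146 (145 to 146) in R1 and 157.5 (157 to 158) in R2, or 1.46% and 1.58% of all UMIs, and ranked 6 among the 15661 and 15438 genes with a UMI. UMIs count captured copies that begin at a stretch of A, which need not be the 3′ end, and were not divided by transcript length. This order is therefore one of UMIs, not of RNA molecules. Gm42418 followed at 3.65 per 10000 in R1 and 2.78 in R2, with ranks of 316 and 436. Kcnq1ot1 stood at 0.805 and 0.601, with ranks of 1601 and 2035. Neat1 stood at 0.530 and 0.292, with ranks of 2341 and 3536. The order Malat1, Gm42418, Kcnq1ot1, Neat1, Meg3 was the same in both mice, and no 2 neighbours in it had overlapping intervals within a mouse. Meg3 had 1 UMI among all Ttr-high cells of each mouse.

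**Figure D1:**
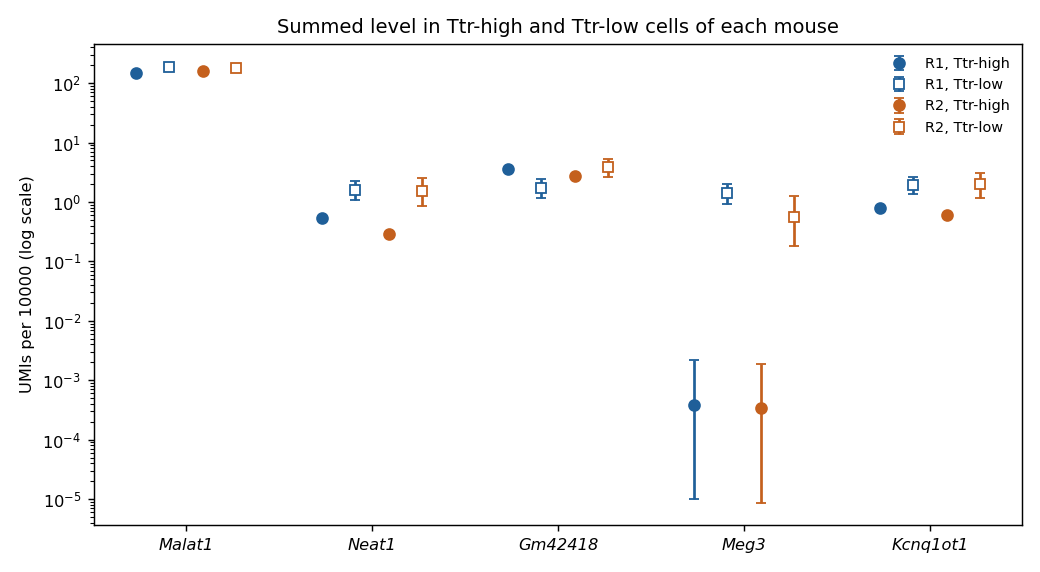
Level of each RNA as UMIs per 10000 UMIs (log scale) in the summed Ttr-high cells (filled circles) and Ttr-low cells (open squares) of R1 (blue) and R2 (orange), with 95% exact Poisson intervals. Neat1 and Kcnq1ot1 lie higher in Ttr-low cells of both mice, Gm42418 moves in opposite directions, and Meg3 rests on 1 UMI in the Ttr-high cells of each mouse.

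In single cells the RNAs differed as much in how often they were seen. Malat1 was detected in 98.7% of Ttr-high cells in R1 and 99.9% in R2, with a median of 131 and 137 UMIs in a cell. Gm42418 was detected in 74.0% and 59.0% of cells. Kcnq1ot1 was detected in 37.5% and 27.8%, and Neat1 in 29.2% and 18.1%. These shares depend on depth. With each cell thinned to 2000 UMIs, which every kept cell reached, Gm42418 was expected in 44.7% and 34.3%, Kcnq1ot1 in 13.5% and 9.64%, and Neat1 in 10.1% and 5.43% of cells. Kcnq1ot1 reached 33 UMIs in 1 cell of R1, above the 10 UMIs that Neat1 reached there.

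The Malat1 level formed 1 broad peak with few cells near 0 in R2, and a peak with a second group of cells near 0 in R1. The median cell had 144 Malat1 UMIs per 10000 in R1 and 152 in R2, and the 5th and 95th percentiles were 17.6 and 356 in R1 and 87.0 and 303 in R2. Malat1 was at 0 in 35 Ttr-high cells of R1 and 2 of R2, where 0.0 were expected in each mouse if every cell had the mouse's mean share at its own depth. A limit of 30 per 10000, set after the values were seen, held 155 cells of R1 (5.69%) and 18 of R2 (0.611%), here called Malat1-poor. Of Ttr-high cells, 28 in R1 and 11 in R2 lay between 20 and 40 per 10000. Upwards, 100 cells of R1 and 47 of R2 exceeded 400 per 10000.

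**Figure D2:**
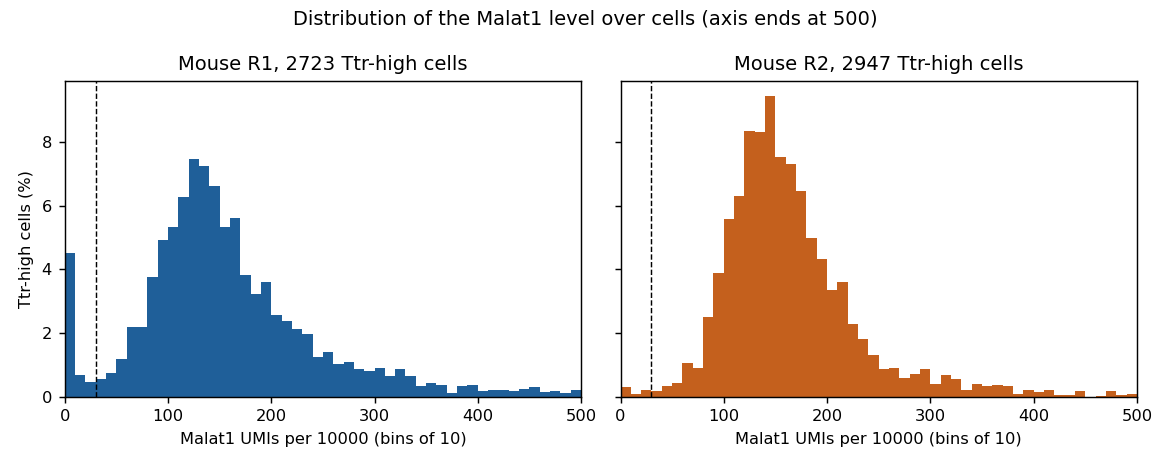
Share of Ttr-high cells (%) by Malat1 level (UMIs per 10000, bins of 10) in R1 (left) and R2 (right), with a dashed line at 30 per 10000 and the axis ending at 500. Both mice peak near their medians of 144 and 152, and a separate group of cells below 30 stands out in R1.

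The summed level of all 4 RNAs that could be measured was lower in deep cells. For this comparison the deepest tertile of Ttr-high cells by UMIs (1 cell in 3) was set against the shallowest, 907 and 908 cells in R1 and 982 and 983 in R2. Malat1 stood at 211 per 10000 in shallow cells and 124 in deep cells of R1. In R2 the values were 176 and 144. On the log2 scale these changes were -0.77 in R1 and -0.29 in R2. Gm42418 went from 6.33 to 2.85 in R1, and the R2 values were 3.43 and 2.01, the widest of the 4 changes in both mice. Neat1 went from 0.829 to 0.450 in R1, and from 0.331 to 0.254 in the other mouse. Kcnq1ot1 went from 0.994 to 0.735 in R1, and in R2 from 0.600 to 0.569, a log2 change of -0.08. Thus 4 of 4 measured RNAs were lower in deep cells of both mice, beside 25.1% of the 11066 other genes tested, and nothing further is read from this count, since the RNAs were chosen in this contrast.

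Across 5 equal groups of cells by depth (quintiles) the course differed between the mice. In R1 the Malat1 level declined at every step, from 223 to 189, 152, 135 and 119 per 10000. In R2 the shallowest quintile had 165, the next 192, and the level then declined to 140 in the deepest. Gm42418 went from 7.16 down to 2.73 in R1, and through 3.21, 4.25, 4.30, 3.002 and 1.69 along the quintiles of R2, where it was highest in the middle one. For the sparse RNAs the ends of the range did not follow in R2. Kcnq1ot1 had 0.563 per 10000 in the deepest and 0.486 in the shallowest quintile there, a ratio of 1.16 (0.931 to 1.46), and Neat1 had 0.240 and 0.294, a ratio of 0.816 (0.610 to 1.11). In R1 both were lower in the deepest quintile, with ratios of 0.705 and 0.403. The mt- genes, which are read from the mitochondrial genome, went from 218 to 97.2 per 10000 in R1 and over 145, 164, 160, 129 and 104 in R2. In absolute terms Malat1 was higher in deep cells of both mice. UMIs of Malat1 per cell were 2.68 times as many in the deepest as in the shallowest quintile of R1, where the median total was 4.79 times as high, and 5.73 times as many in R2, where the total was 6.55 times as high.

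**Figure D3:**
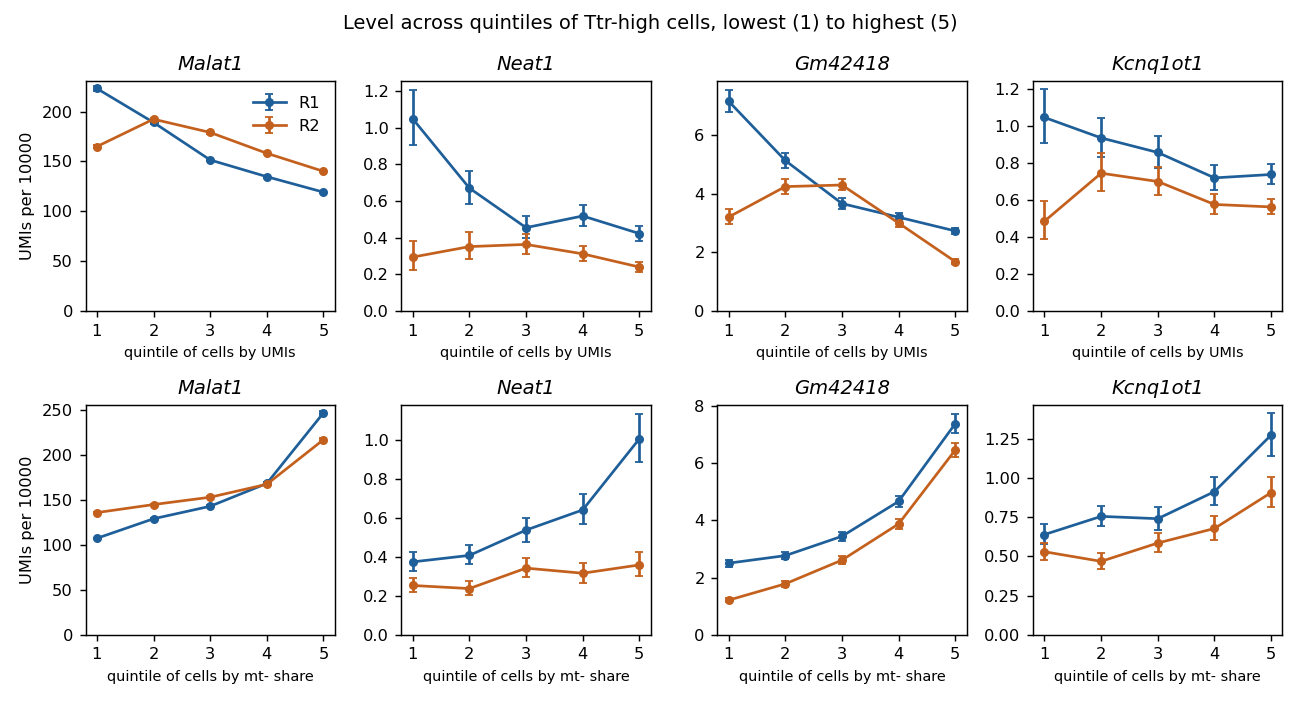
UMIs per 10000 of Malat1, Neat1, Gm42418 and Kcnq1ot1 across quintiles of Ttr-high cells ordered by UMIs (upper row) or by mt- share (lower row), for R1 (blue) and R2 (orange), with 95% exact Poisson intervals. With depth the Malat1 level declines from 223 to 119 in R1 and peaks in quintile 2 of R2, and with the mt- share it climbs in both mice.

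Rank correlations across single cells are given as a description, since cells of a mouse share a library and each level shares its denominator with depth. Spearman's rho between Malat1 level and depth was -0.34 over 2723 cells of R1 and -0.15 over 2947 cells of R2. Leaving out the Malat1-poor cells, most of them shallow, moved it to -0.54 in R1. For Gm42418 rho was -0.14 and -0.03. Neat1 and Kcnq1ot1 gave positive values, 0.09 and 0.18 for Neat1 and 0.15 and 0.25 for Kcnq1ot1, although their summed levels were lower in deep cells. Most cells hold none of their UMIs and a deep cell is more often above 0, so these values are not read as a relation.

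The 4 RNAs were also higher at a high mitochondrial share. Cells were split by the share of UMIs from the 13 mt- genes, and for this comparison those genes were left out of the totals. Malat1 stood at 214 per 10000 in the highest tertile and 117 in the lowest tertile of R1, and at 201 and 140 in R2. Gm42418 changed most, from 2.58 to 6.07 in R1 and 1.38 to 5.42 in R2, which is 2.35-fold and 3.93-fold. Neat1 had 0.383 at a low and 0.858 at a high share in R1, and 0.230 and 0.342 in R2. Kcnq1ot1 went from 0.717 to 1.13 and from 0.513 to 0.802, a 1.58-fold and a 1.56-fold change. All 4 were higher in both mice, as were 45.7% of the 11088 other genes tested.

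Cells with a high mt- share were also shallow, and the correlation of the mt- share with depth was -0.46 in R1 and -0.26 in R2. Within each quintile of depth, the cells above that quintile's median mt- share were therefore set against the rest. Here the mt- genes stayed in the totals. For Malat1 in R1 the ratio was 2.36 in the shallowest quintile, followed by 1.37, 1.14, 1.11 and 1.09 with rising depth. In R2 it was 1.09, 1.46, 1.32, 1.21 and 1.13. So the Malat1 level was higher at a high mt- share in every quintile of both mice, by least in the deepest quintile of R1 and the shallowest of R2. Of the 155 Malat1-poor cells of R1, 142 were in the shallowest tertile and 142 had an mt- share under 0.5%. Their part in the ratio of 2.36 was not tested. For Gm42418 the ratio ranged from 1.27 to 1.70 in R1 and from 1.91 to 2.69 in R2, and was above 1 in each quintile of both mice. For Neat1 it lay under 1 in the middle quintile of R2, at 0.843. For Kcnq1ot1 it lay under 1 in the deepest quintile of R1, at 0.992, and in the shallowest quintile of R2, at 0.785.

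Across single cells, Malat1 and the mt- share correlated with a rho of 0.58 in R1 and 0.31 in R2. Without the Malat1-poor cells rho was 0.52 and 0.32. Gm42418 gave 0.25 and 0.29. For Neat1 it was 0.06 and -0.01, and for Kcnq1ot1 0.04 and 0.00, although the summed levels of both were higher at a high mt- share. With most cells at 0, these values are not read either way. The RNAs moved little with each other, with a highest rho of 0.21, for Malat1 with Gm42418 in R2, and the same pair at 0.13 in R1.

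The genes whose level across Ttr-high cells was most like that of Malat1 came from the mitochondrial genome. Likeness was taken as the smaller of the 2 mice's rho among 1216 genes with at least 1 UMI per 10000 in each mouse. The closest were mt-Cytb (0.57 in R1, 0.29 in R2), mt-Nd1 (0.51 and 0.25) and mt-Nd4 (0.53 and 0.24), which encode parts of the respiratory chain. Next came the metallothioneins Mt1 (0.29 and 0.22) and Mt2 (0.31 and 0.22), which bind zinc and copper. Opposite to Malat1 ran Rgr, an opsin of the RPE visual cycle, at -0.45 and -0.34, then Ptgds, a prostaglandin D synthase, at -0.39 and -0.28, and Bsg, basigin, at -0.40 and -0.25. For Neat1 the highest were Myrf (0.07 and 0.08), Mfap3l, Kif1b, Krt8 and Lrp8, all with a rho too low to be read as likeness.

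The other genes of the pathways were tested in the same splits of cells. UMIs were summed per mouse and group and fitted by edgeR's quasi-likelihood test, blocked by mouse, and p-values were adjusted after Benjamini and Hochberg. With 2 mice this leaves 1 residual degree of freedom per gene, and the groups are cut from the same cells on their own measured values. Between cells of high and low mt- share, 22.2% of 11092 genes were called, 10.4% higher and 11.8% lower. Without the scaling for composition 68.4% of the calls were higher, in place of 47.0%. Without the block 1 gene was called, and 2163 had an unadjusted p under 0.05.

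Proteins of the nuclear bodies were called in both directions. Of 15 paraspeckle proteins, 3 rose and 3 fell with the mt- share, where 22.2% of all genes were called. The list's median log2 fold change was -0.07, beside 0.02 over all genes. Sfpq, a core partner of Neat1, rose by 0.36 ± 0.10 (SE, adjusted p = 0.00421). Nono, the usual partner of Sfpq, fell by 0.35 ± 0.13 (adjusted p = 0.0396), and Hnrnpk fell by 0.55 ± 0.08 (adjusted p = 3.15e-09). Cpsf6 rose and Nudt21 fell, both subunits of the complex that selects polyadenylation sites. Pspc1 had a log2 fold change of -0.27 ± 0.23 with an adjusted p of 0.442. Their levels were far below that of Malat1, with Sfpq at 0.987 per 10000 in the high and 0.765 in the low group of R1.

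Of 26 nuclear speckle and splicing genes, 5 rose and 3 fell with the mt- share, with a median of 0.09. Over all genes 22.2% were called and the median was 0.02. The RNA helicase Ddx17 rose by 0.64 ± 0.09 (adjusted p = 2.81e-09), and the splicing factors Srsf1 and Pnn rose by 0.41 each. Tra2b, Srsf3 and Srsf6, also splicing regulators, fell by 0.38, 0.36 and 0.35. AY036118, on the strand opposite to Gm42418, did not pass, at 0.35 ± 0.24 with an adjusted p of 0.308, and had 0.209 and 0.150 per 10000 in the high and low group of R1. Among 8 tested RPE markers 4 fell, led by Rgr (-0.58 ± 0.07) and Rrh (-0.47 ± 0.08), which both encode opsins. Markers on the other lists moved as well. Of 4 tested Pax6/Dkk3 markers 3 rose, namely Dkk3 (1.14), Mlana (0.52) and Aldoc (0.26). Of 4 tested microglia or macrophage markers C1qc (-3.83), Fcer1g (-3.53) and C1qa (-2.47) fell and Csf1r rose, and the first 3 stood under 0.1 per 10000 in both groups. Of 12 dissociation response genes Dusp1 (-1.58) and Fos (-0.48) were called lower. Fos moved in opposite directions in the mice, however. It stood at 0.090 per 10000 in the high and 0.054 in the low group of R1, and at 0.282 and 0.488 in R2. The part of these markers and response genes in the levels of the RNAs was not tested.

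Of the genes in the imprinted domains of Meg3 and Kcnq1ot1, 7 were tested and 2 fell with the mt- share, where 22.2% of all genes were called. The 2 that fell were Cdkn1c, a cell cycle inhibitor silenced by Kcnq1ot1 on the paternal chromosome (-0.75 ± 0.21, adjusted p = 0.00324), and Cd81, a tetraspanin (-0.37 ± 0.07, adjusted p = 9.49e-06). Of 9 other imprinted genes tested, Grb10, Igf2r and Peg3 rose and Mest and Snrpn fell.

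Between deep and shallow cells, 0.678% of 11070 genes were called, 0.108% higher and 0.569% lower. Of 10 tested mt- genes 6 fell, led by mt-Nd4 (-0.81 ± 0.11) and mt-Cytb (-0.76 ± 0.11), and the median of the list was -0.70, beside 0.00 over all genes. None of 15 paraspeckle, 26 speckle and 7 imprinted-domain genes passed, and Sfpq, Nono and Pspc1 had log2 fold changes of 0.01, 0.36 and -0.05. Of 4 tested Pax6/Dkk3 markers Dkk3 (-1.40) and Mlana (-0.52) fell, and the heat shock gene Hspa1a fell (-0.45). The microglia marker C1qc rose (3.22) from very few UMIs. It stood at 0.028 per 10000 in deep and 0.005 in shallow cells of R1, and at 0.023 and 0 in R2. The part of these genes in the levels was not tested. Counts of calls in this split changed with the method, from 75 to 9 by DESeq2 and to 0 without the block, where 427 genes had an unadjusted p under 0.05.

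The Malat1-poor cells of R1 were poor in the other nuclear RNAs and in mitochondrial RNA as well. They were set against the other Ttr-high cells of the shallowest tertile, since 142 of the 155 were in it. The values describe cells of 1 library and have no test. Neat1 stood at 0.177 per 10000 in Malat1-poor cells and 0.924 in the others, Kcnq1ot1 at 0.064 and 1.14, and Gm42418 at 1.91 and 6.98. The 26 speckle and splicing genes together stood at 14.4 and 28.2 per 10000, and 14 of the 26 were past 2-fold lower. The 15 paraspeckle proteins differed little, with 10.2 and 11.2. By comparison, 12.7% of the 1275 genes with at least 1 per 10000 were past 2-fold lower and 1.88% past 2-fold higher. The 26 speckle genes were not held to that limit in either mouse, so the shares are not alike. Prpf4b, for example, stood at 0.255 and Srsf4 at 0.358 in the other shallow cells of R1.

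**Figure D4:**
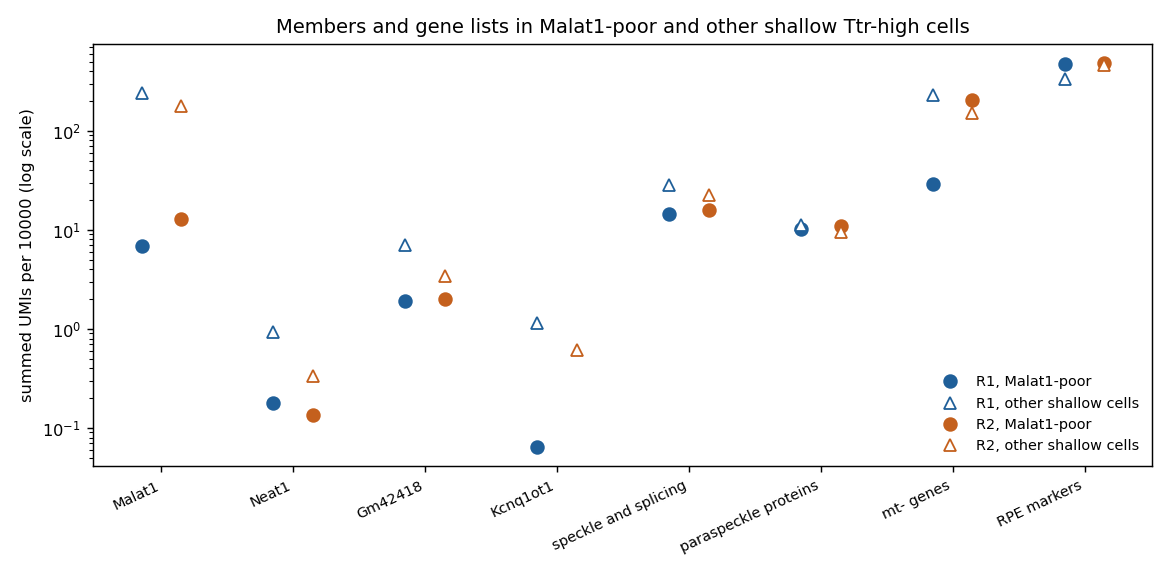
Summed UMIs per 10000 (log scale) of 4 RNAs and 4 gene lists in Malat1-poor cells (filled) and the other cells of the shallowest tertile (open) of R1 (blue) and R2 (orange). Kcnq1ot1 has no point for the 18 Malat1-poor cells of R2, where its count was 0, and the mt- genes are lower in Malat1-poor cells of R1 only.

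The median mt- share of these cells was 0.118%, beside 2.35% in the other shallow cells of R1. An mt- share under 0.5% was seen in 142 of the 155, and in 44 of the other 2568 Ttr-high cells. All 6 mt- genes above 1 per 10000 were lower, for example mt-Cytb with 11.5 and 91.8 per 10000. In R1 a low mt- share thus went with the low Malat1 level on which the cells were cut. The cells were not poor in RPE transcripts. All 155 had at least 3 RPE markers, their median Ttr share was 11.8%, and the RPE markers summed to 475 per 10000, beside 332. Of the 155, 1 had 3 or more markers of another cell type. Microglia or macrophage markers summed to 4.18 and 1.72 per 10000, and the median depth was 3661 and 4536 UMIs. The part of these in the result was not tested.

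Among nuclear-encoded genes the furthest lower in these cells were Chd4, Ogt, Fryl, Gdf11 and Myh14. The chromatin remodeller Chd4 had 3 UMIs, or 0.048 per 10000, beside 1.09 in the other shallow cells, and the O-GlcNAc transferase Ogt had 0.080 and 1.66. Nktr and Pnisr, proteins with arginine-serine domains, had 0.161 and 1.43, and 0.177 and 1.52. Higher were Hspa5, a chaperone of the endoplasmic reticulum (10.7 and 3.04), the protease Ctsc (5.30 and 2.06) and the proteasome subunit Psma1 (2.76 and 1.18).

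In R2 the 18 Malat1-poor cells shared part of this. Kcnq1ot1 had 0 of 74179 UMIs in them, which allows up to 0.404 per 10000 if a count of 0 is taken to allow 3 counts (0.497 as the upper end of the exact interval), beside 0.609 in the other shallow cells. Neat1 had 1 UMI, and Gm42418 stood at 2.02 and 3.44. The speckle genes summed to 15.8 and 22.8. For ratios of single genes, a count under 3 in Malat1-poor cells was raised to 3, or 0.404 per 10000 here. On that scale 2 of the 26 were past 2-fold lower and their median log2 ratio was -0.08. Prpf4b, with 0 UMIs beside 0.164 per 10000, thus enters as higher. The count and median therefore cannot be set against those of R1, where the limit was 0.048 per 10000. The mt- share did not follow, with a median of 2.18% and only 4 of the 18 under 0.5%, and the mt- genes summed to 206 and 153 per 10000. Past 2-fold lower were 9.41% of 1275 genes, not all of which reached 1 per 10000 in R2. With the limit of 3 counts a sparse gene cannot be past 2-fold lower there. Nktr, with 0 UMIs beside 0.569 per 10000, is not counted, so this share is not comparable with that of R1. Of the 1137 genes at 1 per 10000 or more in both mice 20 were past 2-fold lower in both, and nothing is read from this number. Of the 15 nuclear-encoded genes furthest lower in R1, 14 were lower in R2 too. Of the 15 furthest higher in R1, 11 were higher in R2. The median log2 ratio over the 1275 genes was 0.01 in R2. Several of the lower genes rest on very few UMIs in the 18 cells, such as Chd4 with 1 and Nktr with 0. The share of all genes alike in direction was not taken, so nothing is read from these counts either. Hspa5, the furthest higher in R1, went the other way in R2, with 1.75 and 3.29 per 10000.

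**Figure D5:**
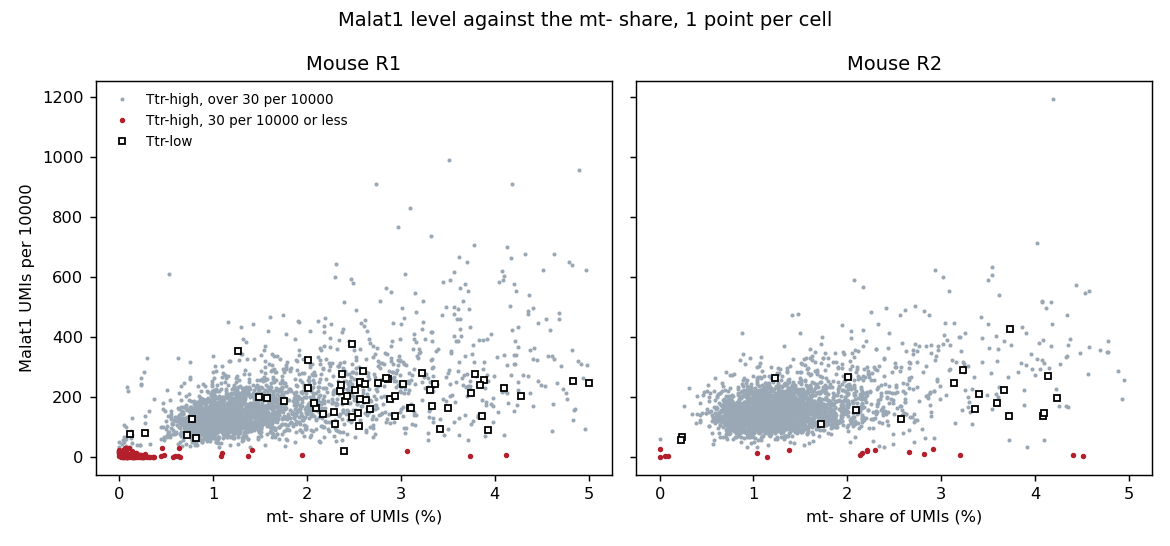
Malat1 UMIs per 10000 against the mt- share of UMIs (%) in single cells of R1 (left) and R2 (right), with Ttr-high cells in grey, Malat1-poor cells in red and Ttr-low cells as open squares. In R1 most of the 155 Malat1-poor cells lie under 0.5% mt-, whereas the 18 of R2 are spread over the whole range, and Ttr-low cells lie inside the Ttr-high cloud.

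Ttr-low cells differed from Ttr-high cells in their markers, which stand beside every value that follows. UMIs of at least 3 of 8 Pax6/Dkk3 markers, a list picked on these libraries, were found in 53 of 59 cells of R1 and 16 of 19 of R2, and also in 147 and 62 of the Ttr-high cells. At least 3 RPE markers were found in 52 and 15 of the Ttr-low cells too, at a lower level. A Ttr-low cell of R1 with 7 microglia markers had 6 RPE markers as well. RNA from outside the cell (ambient RNA) was not subtracted, so 3 RPE markers do not by themselves show an RPE cell. The Pax6/Dkk3 list includes the eye transcription factor Pax6 and Dkk3, a secreted Wnt modulator. Fibroblast markers were found in 3 and 2 cells and microglia markers in 2 and 1. The RPE markers summed to 37.6 and 26.2 per 10000, beside 405 and 455 in Ttr-high cells, and Best1, an RPE anion channel, was at 0 in Ttr-low cells of both mice. Their median mt- share was 2.57% and 3.35%, beside 1.29% and 1.25%. The part of depth, mt- share and cell type in the levels was not tested beyond the comparisons given here.

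Malat1 was slightly higher in Ttr-low cells than in all Ttr-high cells, and not higher in both mice than in shallow Ttr-high cells beyond counting error. It stood at 189 per 10000 in R1 and 178 in R2, which was 1.30 times (1.26 to 1.34, 95% exact interval) and 1.13 times (1.08 to 1.19) the Ttr-high level. The single cells ranged from 18.1 to 375 in R1 and from 55.9 to 425 in R2, well inside the range of Ttr-high cells. Against Ttr-high cells of the shallowest tertile, whose median depth was 4398 UMIs in R1 and 3481 in R2 and so was not matched, the ratio was 0.895 (0.866 to 0.925) in R1 and 1.02 (0.967 to 1.07) in R2. The log2 fold change was -0.50 with edgeR's TMM scaling and 0.28 in the unscaled fit, and its direction thus depends on the scaling. TMM set the median of all genes to -0.39 and the fit without it to 0.36.

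Neat1 was higher in Ttr-low cells under each reference and scaling. It had 31 UMIs in 15 cells of R1 and 14 UMIs in 5 cells of R2, or 1.61 and 1.54 per 10000. The ratio to Ttr-high cells was 3.04 (2.06 to 4.34) and 5.27 (2.87 to 8.88), and to shallow cells 1.94 and 4.64. Taken as a mean over cells, the level was 1.71 in Ttr-low and 0.624 in Ttr-high cells of R1, and 0.885 and 0.314 in R2. In R1 the Ttr-low cells with 5834, 2407 and 2173 UMIs held 6, 5 and 4 of the 31 Neat1 UMIs. In R2 the Ttr-low cells with 9332, 13692 and 10880 UMIs held 2, 5 and 4 of the 14 Neat1 UMIs, where the group's median depth was 3836. The summed ratio of R2 thus rests largely on these deep cells. The TMM-scaled log2 fold change of Neat1 was 1.19, at the 87.6 percentile of all genes. By DESeq2 it was 1.30, at the 65.8 percentile of the genes fitted there. The share of cells with a Neat1 UMI was 25.4% in R1 and 26.3% in R2, beside 29.2% and 18.1% of the deeper Ttr-high cells, and with cells thinned to 2000 UMIs 20.1% and 14.2%, beside 10.1% and 5.43%.

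The summed Gm42418 level went in opposite directions in the 2 mice. It had 1.72 per 10000 in Ttr-low cells of R1, from 33 UMIs, and 3.84 in R2, from 35 UMIs. The ratios to Ttr-high cells were 0.469 (0.323 to 0.660) and 1.38 (0.962 to 1.92), the latter with an interval that includes 1. Against shallow cells they were 0.271 and 1.12. In R2 a single Ttr-low cell with 9332 UMIs held 12 of the 35 Gm42418 UMIs. Taken as a mean over cells, the level was 1.61 in Ttr-low and 4.50 in Ttr-high cells of R1, and 3.11 and 3.31 in R2. The higher summed level in R2 was therefore not seen in this mean. AY036118 had a TMM-scaled log2 fold change of -0.34 ± 1.24 and did not pass. Per 10000 UMIs it was lower in Ttr-low cells of R1 and higher in those of R2.

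Kcnq1ot1 was higher in both mice, at 1.92 per 10000 in R1 and 1.98 in R2. The ratios were 2.39 (1.68 to 3.30) and 3.29 (1.94 to 5.21), and against shallow cells 1.93 and 3.29. Its TMM-scaled log2 fold change was 0.70, at the 80.5 percentile, and by DESeq2 it was 0.80, at the 59.8 percentile. Kcnq1ot1 had 37 UMIs in 20 cells of R1 and 18 UMIs in 6 cells of R2. Among the 18, a cell with 13692 UMIs in total held 7, and a cell with 4253 held 6. Taken as a mean over cells, the level was 1.82 in Ttr-low and 0.857 in Ttr-high cells of R1, and 1.40 and 0.615 in R2.

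Meg3, nearly absent from Ttr-high cells, was found in a few Ttr-low cells. In R1 it had 27 UMIs in 7 of 59 Ttr-low cells and 1 UMI in 2723 Ttr-high cells. In R2 it had 5 UMIs in 3 of 19 and 1 UMI in 2947. The levels of 1.40 and 0.549 per 10000 compare with 0.00039 and 0.00034 in Ttr-high cells. The cells with fibroblast markers carried most of it in R1, with 18 of the 27 UMIs in 3 cells, which is 16.5 per 10000 (9.78 to 26.1), and 14 UMIs in a single cell. The other 9 UMIs of R1 and all 5 of R2 were in cells with Pax6/Dkk3 markers, 4 and 3 of them, at 0.518 (0.237 to 0.982) and 0.607 (0.197 to 1.42) per 10000. Those 3 cells of R2 were deep, with 9332, 13692 and 10880 UMIs beside a median of 3836 in Ttr-low cells of R2. In R1 the cells with 6628, 5834 and 4435 UMIs held 3, 3 and 2 of the 9, beside a median depth of 3200. The 2 fibroblast-marked cells of R2 had 0 UMIs among 5804, which allows up to 5.17 per 10000 by the same limit of 3 counts (6.36 by the exact interval). Counts this low cannot separate cells that lack Meg3 from cells in which it was missed.

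The cells without markers of fibroblasts, microglia or the other types kept the levels of the remaining RNAs. In the 53 cells of R1 with Pax6/Dkk3 markers Malat1 stood at 197, Neat1 at 1.73, Gm42418 at 1.67 and Kcnq1ot1 at 2.01 per 10000. In the 16 such cells of R2 they stood at 184, 1.70, 4.25 and 2.19. The 3 fibroblast-marked cells of R1 had a lower Malat1 level of 72.5 (57.4 to 90.3). Per 10000 UMIs, 4 of the 5 RNAs were higher in Ttr-low cells of both mice, beside 36.5% of 11571 other genes. Among the 4 is Malat1, whose direction turned with the scaling and the reference, and nothing is read from the count, since this contrast also chose the RNAs.

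In the test of Ttr-low against Ttr-high cells, 11.1% of 11576 genes were called, 4.22% higher and 6.86% lower. Of these calls 38.1% were higher, whereas it was 73.4% without TMM and 63.1% by DESeq2. The 8 Pax6/Dkk3 markers, chosen on these libraries and so no independent evidence, and the 6 fibroblast markers tested were all higher. So were 6 of 7 microglia or macrophage markers and 2 of 3 Muller glia markers. The 8 RPE markers tested were all lower, among them Rpe65, the retinoid isomerase, at 2.81 beside 47.6 per 10000 in R1. Among 15 paraspeckle proteins 1 was called, the chromatin remodelling ATPase Smarca4, which fell by 2.12 ± 0.54 on the log2 scale (adjusted p = 0.00131). Sfpq, Nono and Pspc1 did not pass, with -0.33 ± 0.47, -0.73 ± 0.70 and -0.48 ± 1.30. These fits used TMM, which set the median of all genes to -0.39, and the direction depends on it. Per 10000 UMIs Sfpq stood at 1.195 in Ttr-low and 0.825 in Ttr-high cells of R1, and at 0.768 and 0.643 in R2. Pspc1 was higher per 10000 in Ttr-low cells of both mice as well, and Nono was higher in R1 and lower in R2. Smarca4 was lower per 10000 in both mice, at 0.52 and 1.08 in R1. None of 26 speckle genes passed, and their median was 0.24, beside -0.39 over all genes.

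Of 7 genes tested in the imprinted domains of Meg3 and Kcnq1ot1, 1 was higher and 1 lower, with a median of -0.15, where 11.1% of all genes were called. Cdkn1c rose by 2.71 ± 0.59 (adjusted p = 9.84e-05), from 0.119 to 1.09 per 10000 in R1 and from 0.127 to 1.76 in R2. Slc22a18, an organic cation transporter of the same domain, had 0 UMIs in Ttr-low cells of both mice, beside 0.345 and 0.379 per 10000 in Ttr-high cells (adjusted p = 0.000749). Of 9 other imprinted genes tested 2 rose, Ndn (3.30 ± 0.44), a growth suppressor, and Sgce (2.11 ± 0.72), a sarcoglycan. Dissociation response genes were called in 6 of 13, with Dusp1, Junb, Fos, Ier2 and Jund higher and the heat shock gene Hspa1a lower. These are induced within minutes by cell handling, and Junb stood at 0.884 per 10000 in Ttr-low cells of R1 and 9.88 in R2. Their part in the levels of the 5 RNAs was not tested.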

How the data were processed

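The authors aligned 3′ reads to GRCm38 (mm10) with Cell Ranger 1.2.0 after bcl2fastq 2.20.0.422, per the labels, and deposited UMI counts per gene and cell, not normalized. Ambient RNA was not subtracted and no doublet caller was run in the main setting. Alternatives used all deposited cells, left out the 4% of cells with most UMIs, or subtracted 10% ambient RNA. The 5 RNAs and the gene lists were chosen with earlier results of these data known. Levels are summed counts per 10000 UMIs with 95% exact Poisson intervals, and interval ratios are exact binomial. Sums of UMIs per mouse and group, 4 in each comparison, were fitted with edgeR 4.0.16 (TMM, filterByExpr, mouse as block, false discovery rate 0.05), with DESeq2 1.42.0 as an alternative, in R 4.3.3. The tests were checked on simulated data. Rank correlations used scipy 1.17.1. From each list up to 6 called genes with the largest change were named, along with AY036118, Kcnq1, Sfpq, Nono and Pspc1 whatever their values and the 5 genes most like Malat1 and Neat1, except 1 gene that is not reported here; genes named in Malat1-poor cells were chosen after their values were seen. Replicates were 2 mice, paired with themselves across groups.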

Additional observations from a re-analysis of the deposited data

How the results depend on the processing

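With 2 mice, leaving out a mouse leaves no test. Without the mouse as a replicate block, calls were 2260 (Ttr-low against Ttr-high), 0 (deep against shallow) and 1 (high against low mt- share), in place of 1283, 75 and 2462. Deep against shallow gave 233 calls with cells cut into 2 equal groups, 40 without TMM and 9 by DESeq2. High against low mt- share gave 713 by DESeq2, where only 4177 genes had an adjusted p, beside 11092 by edgeR. The share called was 17.1% by DESeq2 and 22.2% by edgeR. Of the calls, 22.2% were higher by DESeq2 and 47.0% by edgeR. The other 25 of 32 counts stayed within 1.5 times. Of 138 alternative log2 ratios of the 5 RNAs 134 kept their direction. Those that turned were Malat1 in Ttr-low cells against shallow cells (-0.068), with TMM (-0.50) and by DESeq2 (-0.40), and Gm42418, which ran from -1.09 to 0.47 with a mouse left out. Of 80 correlations 2 turned, both near 0: Kcnq1ot1 with mt- share in R1 without Malat1-poor cells (-0.025) and Gm42418 with depth in R2 without the deepest 4% (0.0049). Leaving out Ttr from the totals or Malat1-poor cells was added after seeing the data. Meg3 rests on 1 UMI per mouse in Ttr-high cells, and depth limits what can be said of it, Neat1 and Kcnq1ot1 in single cells.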

Other observations

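The cells left out for over 5% mt- UMIs or too few genes, 62 in R1 and 28 in R2, had higher Malat1 and Gm42418 levels than the Ttr-high and Ttr-low cells of their mouse. Malat1 stood at 331 per 10000 (323 to 340) in R1 and 417 (404 to 430) in R2, and Gm42418 at 13.5 and 13.2. Kcnq1ot1 stood at 2.15 and 1.81 and Neat1 at 1.65 and 0.603, beside 0.530 and 0.292 in Ttr-high cells. Meg3 had 0 UMIs among 181712 and 99517, which allows up to 0.165 and 0.301 per 10000 at the limit of 3 counts. Malat1 ranged up to 943 per 10000 in these cells of R1 and 976 in R2, and the highest Ttr-high cells reached 988 and 1192.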
